A study of Mus musculus with 4 samples.

Results

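A set of 6 clock genes were followed in the liver of mice given a plant extract that contains pyrrolizidine alkaloids. The set holds Arntl, Clock, Npas2, Nfil3 and Cry1, whose transcription is known to run through ROR elements, and Rora, which encodes a receptor that binds these elements. The members were taken by name, and all 6 are among the 25239 genes listed for each library. C57BL/6 mice aged 6 to 8 weeks received normal saline (the control group) or Gynura segetum extract (the group labelled PAs) by the intragastric route for 3 weeks. The extract was concentrated to 2 g/mL and given at 30 g/kg per day. Total liver RNA from 2 control and 2 extract libraries was sequenced, and reads counted to genes came to between 32215268 and 49711750 per library. Whether each library is a different mouse is not stated in the labels, so every p-value below is about the spread of these 4 libraries, part of which may be technical. The labels give no collection time, so a difference in time of day and an effect of the extract cannot be told apart. The extract is a whole plant preparation, so an effect of its alkaloids and one of its other constituents cannot be told apart either.

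The mammalian clock is a transcription loop. BMAL1, the product of Arntl, pairs with CLOCK or its paralog NPAS2 and binds E-boxes, where it drives the Per, Cry and Nr1d genes and output factors such as Dbp. The loop closes on Arntl through ROR elements, short sequences at which ROR receptors such as RORα activate and the REV-ERB receptors (Nr1d1 and Nr1d2) repress. Nfil3, a repressor of D-box genes, and Cry1, a repressor of BMAL1, are also read through ROR elements, Cry1 together with E-boxes. In mouse liver the transcripts of Arntl, Npas2 and Nfil3 are known to peak at a time of day when those of Nr1d1 and Dbp are low.

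Start regions of 3 members are shown because they hold the letters that define the group or its link to the E-box loop. Each runs from 250 bases before to 50 bases after a gene start, 5′ to 3′ on the gene's strand, from RefSeq on GRCm38.p6 (the assembly of mm10). Capitals mark matches to TAGGTCA (the core of a ROR element), to TAGGTTA (a variant known from Arntl) or to the E-box CACGTG on either strand, and in Nfil3 the capitals are TAGGTCA read on the opposite strand.
Arntl, chr7:113207261-113207560, plus strand: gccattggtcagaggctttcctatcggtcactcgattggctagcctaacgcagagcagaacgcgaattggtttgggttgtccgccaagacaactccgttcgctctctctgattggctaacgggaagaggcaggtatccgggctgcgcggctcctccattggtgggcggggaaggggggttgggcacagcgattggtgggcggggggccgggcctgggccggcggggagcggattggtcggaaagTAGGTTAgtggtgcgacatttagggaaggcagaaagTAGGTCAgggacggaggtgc
Nfil3, chr13:52980990-52981289, minus strand: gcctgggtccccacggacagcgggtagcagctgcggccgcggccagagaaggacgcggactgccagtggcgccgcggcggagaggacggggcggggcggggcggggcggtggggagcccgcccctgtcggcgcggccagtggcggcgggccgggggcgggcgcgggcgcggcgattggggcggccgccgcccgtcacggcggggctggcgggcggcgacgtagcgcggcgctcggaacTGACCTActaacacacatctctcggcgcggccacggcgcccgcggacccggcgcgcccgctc
Cry1, chr10:85185005-85185304, minus strand: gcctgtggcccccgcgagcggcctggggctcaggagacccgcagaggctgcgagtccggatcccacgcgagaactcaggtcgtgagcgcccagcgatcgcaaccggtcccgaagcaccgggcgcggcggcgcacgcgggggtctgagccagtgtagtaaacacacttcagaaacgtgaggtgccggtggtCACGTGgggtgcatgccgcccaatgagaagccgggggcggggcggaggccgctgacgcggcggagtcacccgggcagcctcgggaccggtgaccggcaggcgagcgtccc

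Arntl held TAGGTTA at positions 113207505 to 113207511 and TAGGTCA at positions 113207541 to 113207547 of chromosome 7, both on the gene's strand. The longer ROR element consensus, searched on both strands, matched at 113207537 to 113207547 and contains that TAGGTCA. In Nfil3, TAGGTCA lay at positions 52981045 to 52981051 of chromosome 13, 6 to 12 bases before the start. Of 32851 start regions of this length in the mouse genome, 2.61% held TAGGTCA, 1.44% TAGGTTA, 0.384% the ROR element consensus and 7.15% CACGTG. The members have 9 start regions in the table, 3 for Clock and 2 for Arntl, some of them overlapping, and 1 for each other member. TAGGTCA stood in 1 region of Arntl and in that of Nfil3, and the shorter AGGTCA, which TAGGTCA contains and which 16.3% of start regions hold, also stood in 1 of the Clock regions. The D-box forms TTATGTAA and TTACGTAA, held by 0.938% and 0.119% of start regions, were found in none of the 9. These matches describe letters only, and a region without one can have its element elsewhere.

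After the extract, 5 of the 6 genes fell and Rora did not pass the test. The falls ran from 25.6-fold for Npas2 through 5.34-fold for Arntl and 4.45-fold for Nfil3 to 2.04-fold for Cry1 and 1.72-fold for Clock. Across the 13963 genes that entered the edgeR quasi-likelihood test, 3.63% were called lower at a Benjamini-Hochberg adjusted p under 0.05. Both extract libraries lay below both control libraries for 5 of 6 members and for 26.7% of all genes tested. Every member had at least 22 counts in every library, and all 6 passed the filter on low counts. The median log2 fold change of the members was -1.59, against -0.0047 over all genes tested. In bulk liver, fewer cells of a type and less RNA per cell cannot be told apart.

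**Figure D1:**
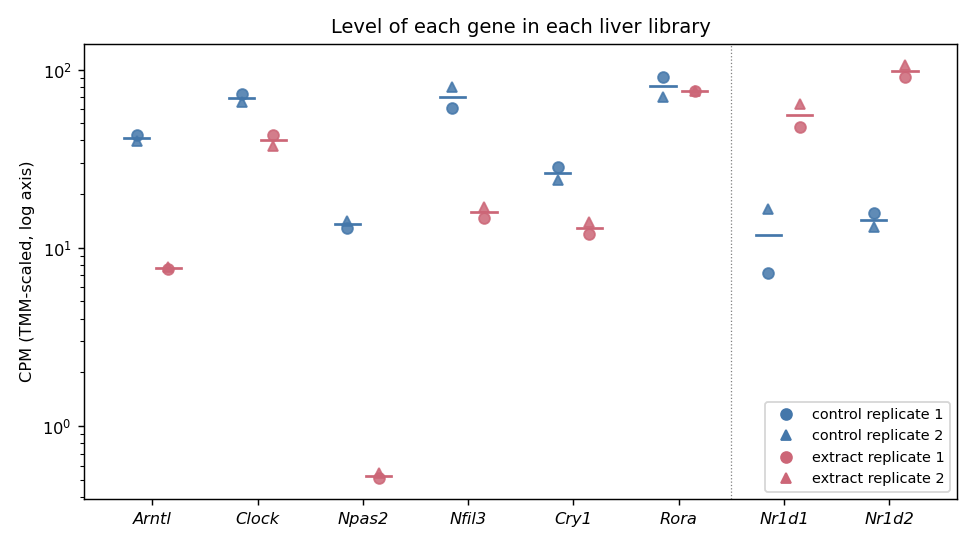
Level of the 6 members (left of the dotted line) and of the 2 REV-ERB receptors in each library, as CPM (counts scaled to 1000000 reads with TMM factors) on a log axis. Circles and triangles are replicates 1 and 2, blue is control, red is extract, and bars are means of 2 libraries. The 2 extract points lie below the 2 control points for every member except Rora.

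Arntl, the gene of the obligate partner BMAL1, stood at 42.7 and 39.5 CPM in control and at 7.56 and 7.85 CPM in extract libraries, where CPM are counts scaled to 1000000 reads. The libraries of a pair differed by 0.11 (control) and 0.05 (extract) on the log2(CPM + 0.5) scale, while the gap between the nearest control and extract libraries was 2.26. The log2 fold change was -2.42 (SE 0.15, 95% interval -2.77 to -2.06, edgeR adjusted p = 0.000475). Arntl lies on chromosome 7 (113207465 to 113314126, GENCODE on GRCm38), and its exons share 33 bases with an antisense gene that has no row of its own in the count files.

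The partners of BMAL1 moved by different amounts. Npas2 (chromosome 1, 39193731 to 39363236) gave 623 and 422 counts in control against 22 and 26 in extract livers, or 13.0 and 14.2 against 0.510 and 0.546 CPM. The pairs differed by 0.12 (control) and 0.05 (extract) on the log2(CPM + 0.5) scale, and the groups were 3.69 apart at their nearest. The added 0.5 is about the extract level of Npas2, so its extract gap and the gap between groups are compressed on this scale. The log2 fold change was -4.68 (SE 0.26, 95% interval -5.30 to -4.05, edgeR adjusted p = 0.00034), and 37 of the 13963 genes tested had a lower one, which places Npas2 at rank 38 from the bottom. Clock (chromosome 5, 76209868 to 76304792) had 72.5 and 66.0 CPM in the control libraries and 43.1 and 37.4 CPM in the extract libraries. Its groups did not overlap, and its log2 fold change was -0.78 (SE 0.15, 95% interval -1.13 to -0.44, edgeR adjusted p = 0.0225). The intervals of Npas2 and Clock do not overlap.

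Cry1 encodes a repressor that binds the BMAL1 complex (chromosome 10, 85131700 to 85185064). It had 28.5 and 24.1 CPM in the control libraries and 11.9 and 13.9 CPM in the extract libraries. The groups did not overlap, and the log2 fold change was -1.03 (SE 0.17, 95% interval -1.43 to -0.62, edgeR adjusted p = 0.0155). The calls for Clock and Cry1 rested on both extract libraries. Without extract replicate 1 the adjusted p was 0.116 for Clock and 0.137 for Cry1, and without extract replicate 2 it was 0.231 and 0.06, so 3 members were called lower in either case. With scaling by total counts the adjusted p of Clock was 0.0644.

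Nfil3, also called E4BP4, represses genes with D-boxes and lies on chromosome 13 (52967209 to 52981073). It had 60.8 and 79.6 CPM in the control libraries and 14.7 and 16.9 CPM in the extract libraries. The control pair differed by 0.39 on the log2(CPM + 0.5) scale, the widest gap of a member, against 1.82 between the nearest libraries of the 2 groups. The log2 fold change was -2.15 (SE 0.18, 95% interval -2.59 to -1.72, edgeR adjusted p = 0.0015).

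Rora encodes RORα, an activator at the ROR element (chromosome 9, 68653786 to 69388246). It had 90.7 and 70.3 CPM in the control libraries, and the extract libraries lay between these at 75.8 and 76.1 CPM. The log2 fold change was -0.08 (SE 0.16, edgeR adjusted p = 0.816), with a 95% interval from -0.47 to 0.30, or 0.722-fold to 1.23-fold. The value was 0.11 without control replicate 1, -0.25 without control replicate 2 and 0.079 with scaling by total counts. The exons of Rora share 82 bases with the antisense gene Gm15511, which had 1 and 1 counts in the control and 2 and 7 in the extract libraries.

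**Figure D2:**
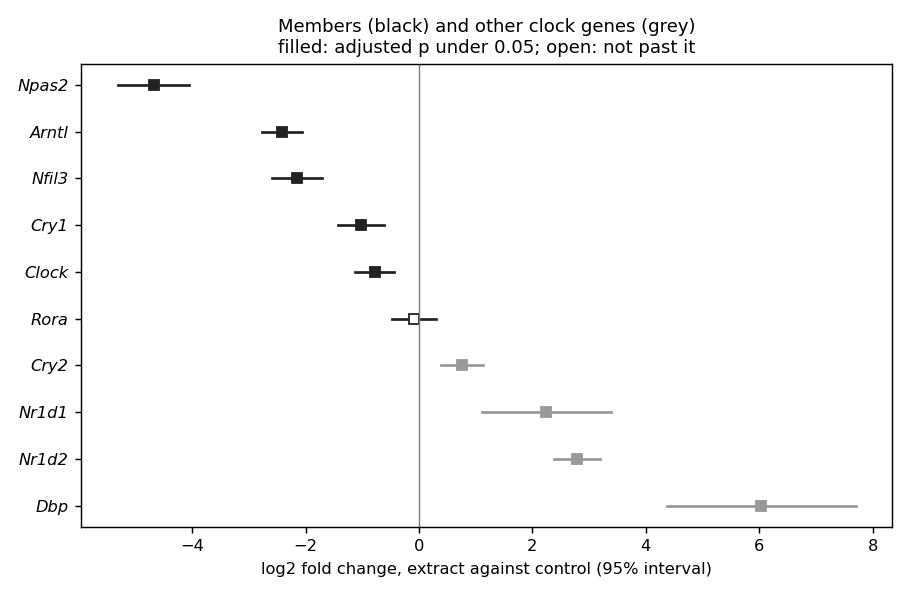
Log2 fold change of the 6 members (black) and of 4 other clock genes (grey), extract against control, with 95% intervals from edgeR. Filled squares are past an adjusted p of 0.05 and open squares are not. The intervals of Npas2, Arntl, Nfil3, Cry1 and Clock lie below 0, that of Rora spans 0, and those of Cry2, Nr1d1, Nr1d2 and Dbp lie above 0.

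Per kilobase of exon, Nfil3 had the highest level of the 6 genes in every library. In the control libraries the means were 34.7 ± 6.56 CPM per kilobase for Nfil3, 7.87 ± 0.94 for Cry1, 6.16 ± 1.10 for Rora, 5.47 ± 0.30 for Arntl, 5.05 ± 0.33 for Clock and 2.84 ± 0.18 for Npas2 (SD, n = 2 libraries). The ranges of Rora and Arntl overlapped across libraries, as did those of Arntl and Clock. Inside control replicates 1 and 2 the order was the same, with Rora at 6.94 and 5.38 and Arntl at 5.68 and 5.26 CPM per kilobase. Arntl stood at 1.075 and 1.093 of Clock there. In the extract libraries the order was Nfil3 (7.79 ± 0.77), Rora (5.81 ± 0.014), Cry1 (3.86 ± 0.42), Clock (2.93 ± 0.30), Arntl (1.02 ± 0.027) and Npas2 (0.11 ± 0.0053), with no overlap between neighbours. Arntl and Clock, at like levels per length in the control libraries, stood apart after the extract. Lengths are the union of all annotated exons, so a gene read mainly as a short isoform has a higher true level per length.

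The REV-ERB receptors, which repress at the ROR element, went the other way. Nr1d1 (REV-ERBα) had 7.21 and 16.5 CPM in the control libraries and 47.6 and 63.9 CPM in the extract libraries. Both extract libraries lay above both controls, although the control pair differed by 1.14 on the log2(CPM + 0.5) scale. The log2 fold change was 2.25 (SE 0.44, edgeR adjusted p = 0.0497), and the adjusted p was 0.23 without extract replicate 1, 0.259 without extract replicate 2, 0.185 with no filter on low counts and 0.0528 with size-factor scaling. Its log2 fold change was 1.76 without control replicate 1 and 2.95 without control replicate 2. Nr1d2 (REV-ERBβ) rose from 15.7 and 13.0 CPM to 90.8 and 106.5 CPM, with a log2 fold change of 2.78 (SE 0.17, edgeR adjusted p = 0.000475). Exons of Nr1d1 share 263 bases with Thra on the opposite strand, which had 987 and 394 counts in the control and 650 and 676 in the extract libraries.

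Rorb, which encodes RORβ, was at 0 counts in all 4 libraries, which allows at most 0.0625 to 0.101 CPM per library (3 counts, counting error only).

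Ratios inside a library do not depend on how libraries are scaled, and they are given per base of exon. Npas2 stood at 0.513 and 0.617 of Clock in the control libraries and at 0.0339 and 0.0419 in the extract libraries. Cry1 to its paralog Cry2 was 2.00 and 1.98 in the control and 0.494 and 0.674 in the extract libraries, so the order of the cryptochromes turned over. Cry2 itself rose, with a log2 fold change of 0.76 (SE 0.16, edgeR adjusted p = 0.0325), though its edgeR adjusted p was 0.315 without extract replicate 1 and 0.118 without extract replicate 2.

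Arntl to Nr1d1, a target and its repressor, went from 2.42 and 0.981 to 0.065 and 0.0502. Nfil3 to Dbp, a repressor and an activator of D-boxes, went from 65.3 and 436.9 to 0.363 and 0.432. The wide control range of the latter came from Dbp, which had 66 and 8 counts there and 2574 and 2753 in the extract libraries. The groups did not overlap in any of these 4 ratios. For Cry1 to Cry2, Arntl to Nr1d1 and Nfil3 to Dbp this had to be so. In each, the first gene fell and the second rose, both without overlap between the groups. The ratio of Npas2 to Clock restates their unequal falls. Since 2 against 2 libraries allow no 2-sided exact permutation p under 0.33, the ratios are a description and add no separate evidence.

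**Figure D3:**
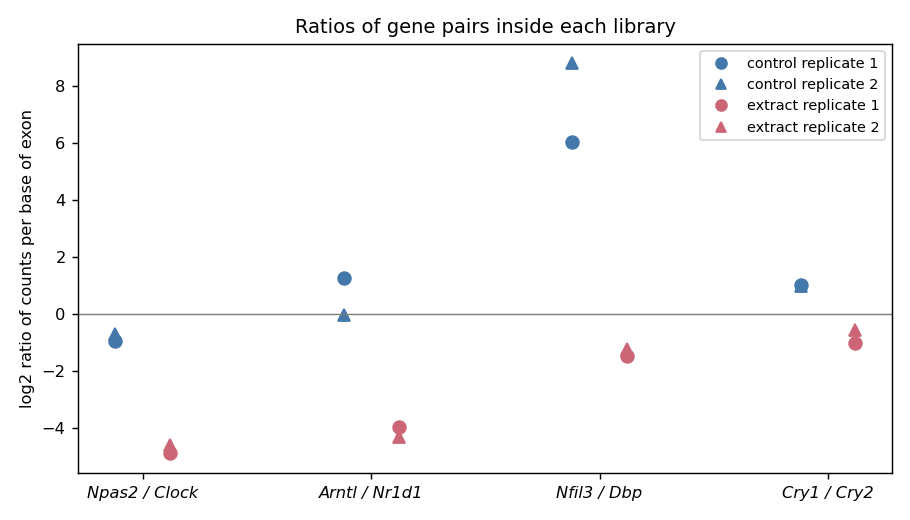
Log2 ratio of counts per base of exon for 4 gene pairs inside each library. Blue is control, red is extract, and circles and triangles are replicates 1 and 2. The extract points lie below the control points in all 4 pairs, with a wide control spread for Nfil3 to Dbp.

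A list of 15 other clock genes held 14 tested members, of which 10 rose, 0 fell and 4 did not pass, where 4.91% of all genes tested were called higher. The median log2 fold change was 2.35. Besides Nr1d1, Nr1d2, Cry2 and Dbp (6.04), the smallest p-values were those of the period genes Per2 (3.40) and Per3 (4.68), of Ciart (5.64), a repressor of CLOCK and BMAL1, and of the D-box activator Tef (2.93). Hlf (0.74) and Bhlhe41 (2.46) also rose, though neither was past the threshold when an extract library was left out. Per1 (1.40, edgeR adjusted p = 0.117), Bhlhe40 (1.26, 0.243) and Timeless (-0.041, 0.943) were among those that did not pass. Per1 was past the threshold with DESeq2 (adjusted p 0.0027). For Per1 and Bhlhe40, a fit without 1 control library holds no spread between controls, so only its fold change is given. Without control replicate 1 the log2 fold changes of Per1 and Bhlhe40 were 2.18 and 2.15, and without control replicate 2 they were 0.91 and 0.72. More of the list was called higher when a control library was left out, and less of it when an extract library was left out. The number over all genes tested moved the same way. Dbp was among those not called when an extract library was left out, and its edgeR adjusted p was 0.0825 with no filter on low counts. Its log2 fold change was 7.75 without control replicate 1 and 5.42 without control replicate 2. Exons of Dbp share 539 bases with Sphk2 on the opposite strand, which had 2600 and 1252 counts in the control and 1629 and 1839 in the extract libraries.

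Most genes that modify clock proteins did not pass the test. Of 20 kinases, ubiquitin ligases and cofactors tested, 2 rose, 0 fell and 18 did not pass. Over all genes tested, 4.91% were called higher and 3.63% lower. The median log2 fold change of the list was -0.012. The ubiquitin protease Usp2 rose by 3.42 on the log2 scale (SE 0.18, edgeR adjusted p = 0.000292). The NAD-synthesis enzyme Nampt was at 0.55 (edgeR adjusted p = 0.0714) and the kinase Gsk3b at 0.41 (0.123), both not past it. Nampt was past it in edgeR with total-count scaling (adjusted p 0.0445), no filter on low counts (0.0363) and a replicate block (0.0344), and with DESeq2 (0.0243). Without control replicate 1 the log2 fold changes of Nampt and Gsk3b were 0.67 and 0.50, and without control replicate 2 they were 0.44 and 0.34.

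Most metabolic genes reported as ROR or REV-ERB targets in mouse liver did not pass the test. Of 20 tested, 4 fell, 1 rose and 15 did not pass. Over all genes tested, 3.63% were called lower and 4.91% higher, so 1 rise among 20 is near the share of all genes. The median log2 fold change of the list was -0.67. The bile acid 12-alpha-hydroxylase Cyp8b1 fell (-4.28, edgeR adjusted p = 0.000292), as did the vasopressin receptor Avpr1a (-1.09, 0.0187), Apoa1 (-0.87, 0.0294) and Insig2 (-0.96, 0.0495), which holds the sterol-sensing complex in the endoplasmic reticulum. The number called was larger when a control library was left out and smaller when an extract library was left out. The number over all genes tested moved the same way. Cyp8b1 was past the threshold in each of these fits, whereas Avpr1a, Apoa1 and Insig2 were not when an extract library was dropped. Insig2 was also not past it under total-count scaling (0.0698), the strict filter on low counts (0.0501) or limma-voom (0.051).

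Other genes had profiles close to those of the members across the 4 libraries. Likeness was the root mean square difference of log2(CPM + 0.5), each gene centred on its mean, over 11641 candidate genes whose mean reached 1 CPM, and the 2 nearest genes were taken. For Arntl these were Kcnt2 (0.027) and Cd300e (0.044), and for Clock they were Acsm3 (0.015) and Defb1 (0.032). Npas2 had no neighbour as close, with Timd4 at 0.137 and A1bg at 0.159. The nearest to Nfil3 were Stab2 (0.073) and Clic3 (0.087), to Cry1 Pdcd4 (0.031) and Elovl2 (0.036), and to Rora Dolpp1 (0.012) and Mcm8 (0.014). The added 0.5 compresses low genes, so that Kcnt2, at 3.79 and 3.40 CPM against 0.301 and 0.357 CPM, had a log2 fold change of -3.44 in the edgeR fit. Among the members, Clock and Cry1 were the closest pair (0.189), followed by Arntl and Nfil3 (0.216), and Npas2 and Rora were the farthest apart (1.86). With 4 libraries in 2 groups, likeness mostly reflects the size of the group difference.

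Timd4 and Stab2 belong to lists of cell markers in which other genes also moved. Over all genes tested, 3.63% were called lower. Of 10 markers of Kupffer cells, macrophages that live in the sinusoids, 9 were lower and 1 did not pass, and their summed level was 575 to 729 CPM in the control and 72.0 to 73.8 CPM in the extract libraries. Of 10 sinusoidal endothelial markers 6 were lower and 4 did not pass, with sums of 406 to 414 and 264 to 282 CPM. Among those 4, Stab1 (0.22), Lyve1 (0.84) and Kdr (0.41) had positive log2 fold changes. Of 10 hepatocyte markers 2 were lower and 8 did not pass, with sums of 137870 to 141140 and 92839 to 96940 CPM. Most of these sums was Alb, with means of 107420 and 71936 CPM, which did not pass (edgeR adjusted p = 0.0982). Apoa1, 1 of the 2 lower markers, is also among the metabolic targets above. T, NK and innate lymphoid markers summed to 5.05 to 19.3 and 1.34 to 2.67 CPM, with 0 of 8 tested past the threshold in edgeR. Of stellate cell markers 1 of 7 was lower (356 to 526 and 304 to 309 CPM), and of cholangiocyte markers 1 of 5 (43.2 to 50.5 and 43.9 to 46.2 CPM). No marker found in the files was at 0 in both extract libraries. The part of these cell types in the fall of the clock genes was not tested.

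The spread inside pairs was near that of other genes. In the control pair their gaps ran from 0.11 to 0.39 on the log2(CPM + 0.5) scale, with 2 of 6 above the median gap of all genes tested (0.26). In the extract pair they ran from 0.005 to 0.22, with 3 of 6 above the median (0.16). With each library left out in turn, the log2 fold change stayed between -4.75 and -4.61 for Npas2, -2.47 and -2.36 for Arntl, and -2.33 and -1.94 for Nfil3, and these 3 genes were past the threshold in every such fit.

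**Figure D4:**
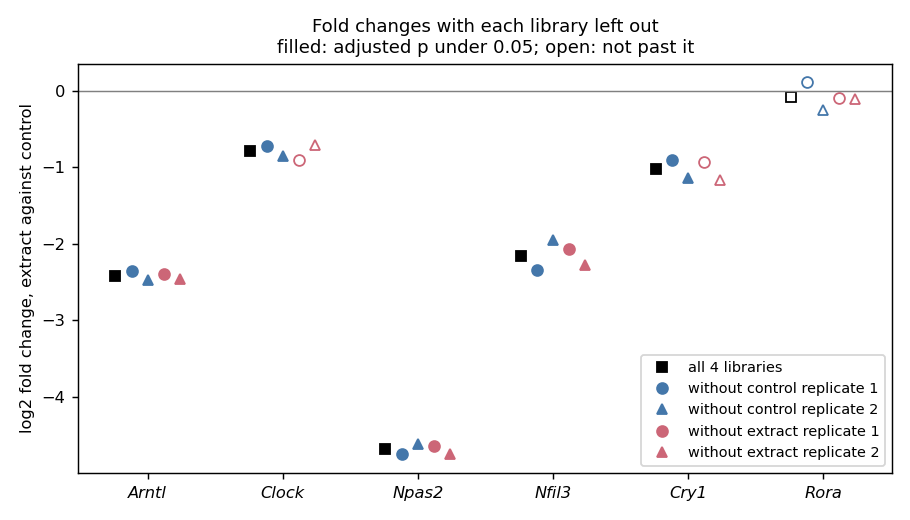
Log2 fold change of each member with all 4 libraries (black squares) and with each library left out (blue for a control, red for an extract library). Filled symbols are past an adjusted p of 0.05. Npas2, Arntl and Nfil3 are filled throughout, Clock and Cry1 are open with either extract library left out, and Rora is open throughout and changes sign.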

How the data were processed

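Liver RNA was measured in 2 control and 2 extract libraries, grouped by their titles. Per the submitters' processing notes, CASAVA 1.8, HISAT2 2.1.0, HTSeq and the build mm10 were used, with no roles or order named. HTSeq's version and strand setting, the annotation and the read length are not stated. The authors deposited raw counts per gene symbol, 25239 per library, and 5 closing rows that name no gene stayed out of library sizes and tests. These rows held 8.40% to 10.2% of records in no feature and 5.18% to 9.03% aligned to more than 1 place. Since no strand setting is stated, antisense reads may be included. The test was that of edgeR 4.0.16 under R 4.3.3 (filterByExpr, TMM scaling, robust quasi-likelihood F test, 2-sided), adjusted after Benjamini and Hochberg over 13963 genes with a threshold of 0.05. CPM values are TMM-scaled, and 1 read is worth 0.0208 to 0.0337 CPM. Standard errors are the log2 fold change divided by the root of F, and the common biological variation was 22.3%. The fit was tested on simulated data. Intervals cover the spread between these libraries only.

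The members and gene lists were chosen with earlier results of these data known. Named genes were the members, the receptors of the ROR element, Dbp and Cry2, up to 4 genes with the smallest p-values from each list (with a mean of at least 1 CPM outside the clock list) and the 2 genes most like each member. Some genes that this rule takes are not reported here. Hlf, Bhlhe41, Insig2, Per1, Bhlhe40, Timeless, Elovl3 and Lpl lie outside that rule and were named after their values were seen. Alternatives were other scalings, other filters on low counts, DESeq2 1.42.0, limma-voom (limma 3.58.1), a replicate block and leaving out each library.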

Additional observations from a re-analysis of the deposited data

How the results depend on the processing

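The calls for Arntl, Npas2 and Nfil3 held under all alternatives tried. With scaling by total counts, which moved the median log2 fold change of all genes from -0.0047 to 0.162, Clock was at -0.62 and not past the threshold, 4 members were called lower, Rora turned to 0.079, Dolpp1 to 0.068, Mcm8 to 0.075 and Timeless to 0.13, and the share of calls that were higher was 73.6% against 57.5%. DESeq2 called 909 genes lower against 507. Leaving out 1 library gave log2 fold changes of -0.90 to -0.70 for Clock, -1.16 to -0.90 for Cry1 and -0.25 to 0.11 for Rora, with 3 to 5 members called lower. It gave 233 to 1826 genes called higher and 134 to 1782 lower, 5 to 13 other clock genes and 1 to 15 metabolic targets. Signs also turned for Dolpp1 (-0.26 to 0.091), Mcm8 (-0.27 to 0.13), Timeless (-0.13 to 0.013), Lpl (-2.64 to 0.51) and Elovl3 (-5.00 to 2.17). A lone library is assumed there to vary like the other pair, which for the extract pair is a smaller spread, so p-values without a control library are small. The cause of the other changes was not tested.

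The replicate numbers are not said to pair the libraries. Deviations of the replicates numbered 1 correlated across genes at 0.202, and 2 pairs cannot show whether the numbers pair the libraries. With a replicate block 5 members were called lower (Arntl -2.42), with 902 genes higher and 682 lower in all. With 2 libraries per group, changes of Rora inside its interval (0.722-fold to 1.23-fold) are compatible with the data. The interval is not a detection limit, and the smallest change of Rora that the test could call was not worked out.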

Other observations

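The control libraries differed in several clock genes read through E-boxes, though not in all, by more than in any of the 6 members. Cry2 and Nr1d2 had control gaps of 0.22 and 0.26 on the log2 scale, below that of Nfil3 (0.39). Hlf, also on the list of other clock genes, had a control mean of 30.4 CPM with an SD of 0.07. The 5 genes that follow were picked for their wide control gaps, after their values were seen. Dbp had 1.38 and 0.269 CPM in control replicates 1 and 2, Per1 had 13.4 and 5.55 CPM, Tef had 38.5 and 19.6 CPM and Bhlhe40 had 80.1 and 29.5 CPM, each higher in replicate 1, while Nr1d1 had 7.21 and 16.5 CPM, the other way round. The extract libraries lay close together for 4 of these 5 genes, with Dbp at 59.7 and 57.8 CPM, Per1 at 24.4 and 25.9 CPM, Tef at 230.8 and 213.4 CPM and Bhlhe40 at 132.6 and 130.2 CPM, while Nr1d1 stood at 47.6 and 63.9 CPM.

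Some genes of lipid handling parted the controls as well. Elovl3, a fatty acid elongase, had 4 and 367 counts in control replicates 1 and 2 and 14 and 21 in the extract libraries, and its log2 fold change was -3.99 with an adjusted p of 0.416 in edgeR. It was -5.00 without control replicate 1 and 2.17 without control replicate 2. Lipoprotein lipase (Lpl) had 10094 and 702 counts in the control and 1408 and 1664 in the extract libraries (log2 fold change -1.79, edgeR adjusted p = 0.508). Its log2 fold change was 0.51 without control replicate 1 and -2.64 without control replicate 2. Elovl3 and Lpl are both on the list of metabolic targets above and were picked after their values were seen.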
